A study of Mus musculus with 18 samples.

Results

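A set of 8 members of the Sox family outside the SoxE pair of the oligodendrocyte lineage were described in differentiating neural precursor cultures: Sox1, Sox2, Sox21, Sox4, Sox11, Sox5, Sox6 and Sox9. Sox9 itself is a SoxE gene, and the 2 SoxE genes left out are Sox8 and Sox10. The 8 genes were chosen with earlier results of these data known. Their probe sets were taken by gene symbol, with no use of measured values. Every probe set of the array that the annotation pairs with 1 of these 8 symbols and no other was included. This gave 33 probe sets of 8 genes, out of 34958 probe sets of 18194 genes that were paired with a single gene. Of the 33 probe sets, 26 reached a mean signal of 100 in at least 1 group and were tested, and each of the 8 genes had at least 1 tested probe set. Values of a gene are those of its brightest tested probe set, unless another probe set is named.

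Total RNA was hybridised to 18 mouse expression arrays, 1 culture sample per array. Neurospheres were grown from the lateral and medial ganglionic eminences, the ventral forebrain region that gives rise to interneurons and oligodendrocytes, of embryonic day 15.5 C57BL/6 mice. They were dissociated, plated as a monolayer in medium with serum, bFGF but no EGF, and bFGF was withdrawn later. All groups shared this culture, and no group carried a mutation or transgene. Controls received neither reagent (n = 2 at 6 h and n = 6 at 24 h). BMP2, a secreted ligand of the BMP pathway, was given as recombinant protein at 10 ng/ml (n = 2 at 6 h and n = 2 at 24 h). Trichostatin A (TSA), an inhibitor of class I and II histone deacetylases, was given at 50 nM (n = 2 at 6 h and n = 4 at 24 h). The comparisons ask which of these Sox genes responded to either reagent, early or late, and where the responses to BMP2 and TSA differed.

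The sources do not say whether arrays of a group came from separate cultures. The p-values rest on the spread between arrays of a group, pooled over the 6 groups, and this spread may be technical. Tests at 6 h thus also rest on the scatter of the 24 h arrays. Medians of the deposited signals lay between 35.4 and 41.6, and arrays of a group correlated at 0.908 to 0.988. The arrays fell into 2 sets by the signal of Xist, the RNA that coats the inactive X chromosome. Both BMP2 24 h arrays and control 24 h arrays 5 and 6 lay between 703.1 and 2086, and the other 14 arrays lay between 18.41 and 75.51. On the brightest probe sets of the 8 genes, differences that use the 24 h arrays are therefore also given with these sets as a term, or within them. They are given where the call changed. For other probe sets and other genes no such fit is given, so whether their 24 h calls hold is not shown. The ventral forebrain label was met in part: 8 of the 9 forebrain identity genes with a probe set reached a signal of 100 in some group. Of other cell types, 0 of 10 microglia genes and 1 of 8 endothelial genes did so, and 4 of 9 genes of mural cells and fibroblasts. The endothelial gene was Kdr, a VEGF receptor, which rose at 24 h of BMP2 (1.36 on the log2 scale, limma adjusted p = 0.000132) and, by less, at 24 h of TSA (0.41, adjusted p = 0.0421). The summed signal of the mural list at 24 h was 831.1 to 1247 in controls, 1380 to 1533 under BMP2 and 939.4 to 1292 under TSA. The part of these cells in the Sox signals was not tested. Genes of the BMP response marked the treatment, with Nog, a secreted BMP antagonist, 4.31 higher on the log2 scale after 6 h of BMP2 (SE 0.18, limma adjusted p = 1.96e-09).

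Sox proteins bind DNA through an HMG box, a domain that sits in the minor groove and bends the helix, and they are grouped by the likeness of that box. SoxB1 proteins such as Sox1 and Sox2 keep neural precursors undifferentiated, and the SoxB2 protein Sox21 acts against them. SoxC proteins, Sox4 and Sox11, are known for switching on neuronal genes in newborn neurons. SoxD proteins, Sox5 and Sox6, carry no activation domain of their own, pair with other Sox factors, and set the timing and identity of interneurons and oligodendrocyte precursors. Sox9 is needed for the start of gliogenesis and is kept in astrocytes.

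The clearest response was that of Sox6, which fell under TSA at both times. At 6 h of TSA, 4 of the 8 genes were lower than in controls and 0 were higher (limma adjusted p below 0.05), namely Sox6, Sox1, Sox2 and Sox4, whereas 26.3% of all 10589 genes tested were called in either direction and 11.8% were called lower. Leaving out any 1 of the 4 arrays of that comparison left 2 of the 8, with Sox1 and Sox4 lost each time. At 24 h of TSA, Sox6 was still lower and Sox21 was higher, so 2 of 8 were called against 38.7% of all genes, of which 20.1% were lower. With the replicate number as a block 4 of 8 were called at 24 h, Sox1 and Sox9 being added as higher, where the block called 44.8% of all probe sets tested. BMP2 called 0 of 8 genes at 6 h, where 1.78% of all genes were called, and 1 of 8 at 24 h, Sox1, where 17.6% were. With 8 genes, a share of 1 or 2 cannot be set apart from these backgrounds. The median log2 difference of the 8 genes was -0.32 at 6 h of TSA and 0.14 at 24 h, against 0.02 and -0.02 over all genes. For the difference of the BMP2 effects at 24 h and 6 h, 0 of 8 genes were called, against 0.774% of all genes. The median for BMP2 was -0.21 at 6 h and -0.12 at 24 h, against -0.01 and 0.03 over all genes. In bulk RNA, fewer cells of a type and less RNA per cell cannot be told apart.

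**Figure D1:**
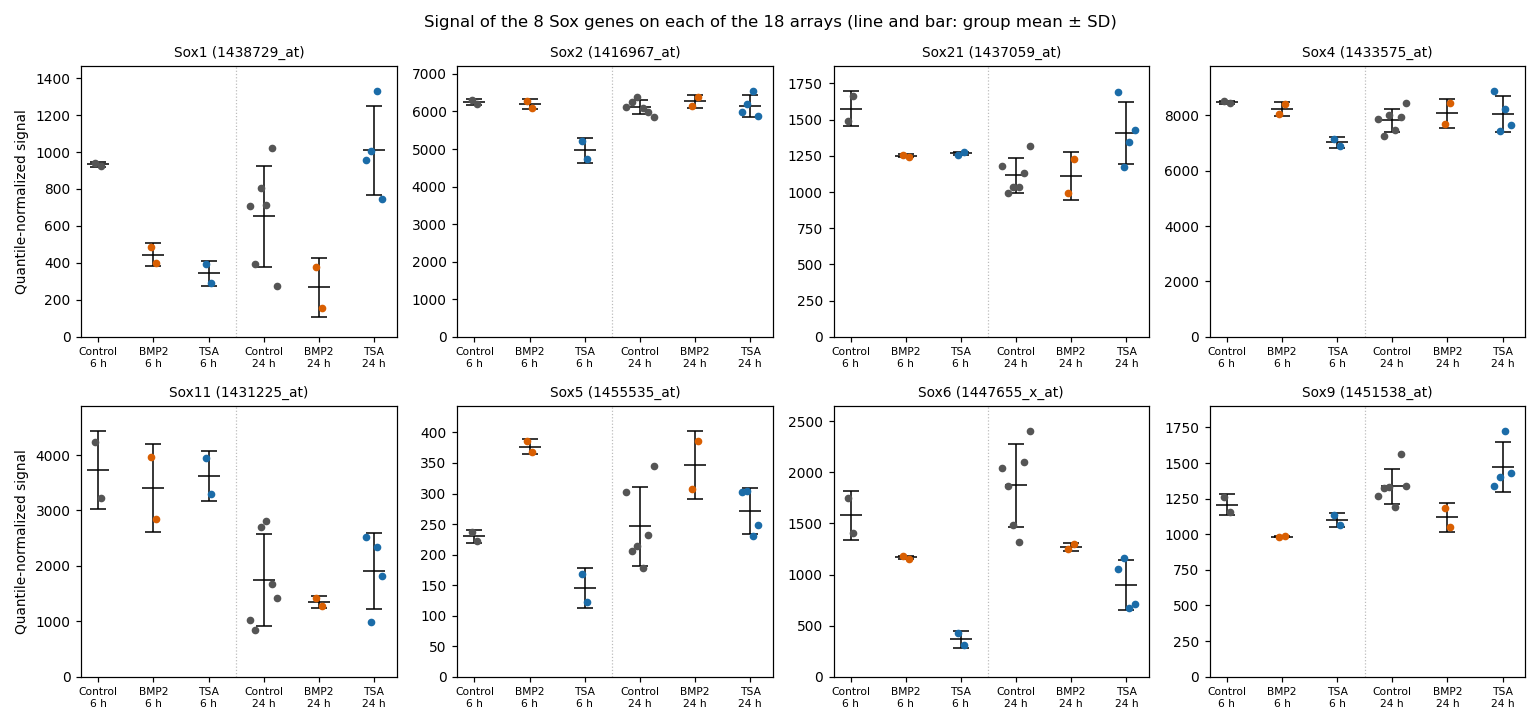
Quantile-normalized signal (linear axis from 0) of the brightest probe set of each of the 8 Sox genes on every array, by group; each point is an array, and the line with its bar is the group mean ± SD. Sox6 fell to a mean of 365.7 at 6 h of TSA, Sox1 was low at 6 h in both treatments and high at 24 h of TSA, and the group means of Sox2 and Sox4 lie close to each other.

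Sox1, a SoxB1 factor of early neural precursors, was lower after 6 h of TSA and, with wide scatter, after 24 h of BMP2. In controls at 6 h the signal was 943 and 925, after BMP2 489 and 401, and after TSA 392 and 293. Both treatments thus lay wholly below the controls at 6 h, BMP2 at a mean of 444.8 ± 62 and TSA at 342.9 ± 69.9 against 933.7 ± 12.9 (SD, n = 2 each). The TSA difference was called (log2 difference -1.38, SE 0.47, limma adjusted p = 0.045, 2.72-fold lower), and leaving out either control or either TSA array raised the adjusted p to between 0.0963 and 0.236. The call was also lost without normalization (adjusted p = 0.0773), with median scaling (0.0672) and with no filter on low signals (0.0779). The BMP2 difference at 6 h was of like direction but was not called (-1.02, 95% interval -2.02 to -0.03, adjusted p = 0.745). It passed with only the groups compared in the fit (adjusted p = 0.0268) and with array weights (0.0333). In 12 of 14 alternatives it did not.

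At 24 h the 6 controls of Sox1 ranged from 276.5 to 1020 with a mean of 652.9 ± 273, the BMP2 arrays gave 380 and 156, and the 4 TSA arrays ranged from 748.5 to 1331 with a mean of 1011 ± 241 (SD). The BMP2 arrays overlapped the lowest controls, and the TSA arrays overlapped the highest. BMP2 was called lower (log2 difference -1.19, SE 0.38, adjusted p = 0.0443). That call was lost with the Xist set as a term (-1.04, adjusted p = 0.223) and against controls 5 and 6 alone (-1.04, adjusted p = 0.248). It was also lost without BMP2 array 2 (-0.62, adjusted p = 0.494) and without any one of controls 1, 3, 4 and 5 (adjusted p between 0.0533 and 0.0763), with no filter (0.0599) and with only the groups compared in the fit (0.147). For TSA the difference was 0.69 (SE 0.3, adjusted p = 0.0865), and it passed with the replicate number as a block (0.62, adjusted p = 0.0234) or without control 5 (0.84, adjusted p = 0.0392). Set directly against each other, TSA exceeded BMP2 at 24 h on every array (log2 difference 1.88, SE 0.4, adjusted p = 0.00231, 3.78-fold). Of the 8 genes, 2 were called in that comparison, Sox1 and Sox9, both higher under TSA, against 38.4% of all genes. The Sox1 call did not survive the Xist set as a term (1.65, adjusted p = 0.0765) or the loss of BMP2 array 2 (1.31, adjusted p = 0.0702). The TSA effect itself turned with time, by 2.07 on the log2 scale from 6 h to 24 h (SE 0.56, adjusted p = 0.0284), 1 of 2 such calls among the 8 genes against 11.6% of all genes. A second probe set of Sox1 stayed under a signal of 100 in every group and was not tested.

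Sox2, the SoxB1 factor on which neural stem cells depend, fell slightly at 6 h of TSA and was called in no other comparison with controls. At 6 h the controls gave 6307 and 6195, BMP2 gave 6291 and 6102, and TSA gave 5203 and 4725. The 2 TSA arrays were the lowest of all 18, and the BMP2 arrays overlapped the controls. The log2 difference was -0.33 (SE 0.07, adjusted p = 0.00222, a ratio of 0.794) against controls. Against BMP2 at the same time it was -0.32 (adjusted p = 0.00247, and 0.0503 without TSA array 2). That comparison called 3 of the 8 genes, all lower under TSA, against 28% of all genes. By 24 h the signal ranged from 5857 to 6398 in controls and from 5866 to 6547 under TSA, with a difference of 0.01 (95% interval -0.08 to 0.1). For BMP2 the difference was -0.01 at 6 h (-0.15 to 0.13) and 0.03 at 24 h (-0.08 to 0.15), and the sign at 24 h turned for both treatments without normalization of the deposited values. The TSA effect at 24 h exceeded that at 6 h by 0.34 (SE 0.08, adjusted p = 0.0154), a call lost with median scaling of the arrays (0.21, adjusted p = 0.205).

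Sox21, the SoxB2 factor that acts against SoxB1 proteins, declined with time in controls and was higher in TSA than in control cultures at 24 h. Controls gave 1491 and 1663 at 6 h and 994.4 to 1317 at 24 h, with means of 1577 ± 122 (SD, n = 2) and 1116 ± 121 (SD, n = 6). Every 24 h control lay below both 6 h controls (log2 difference -0.49, SE 0.13, adjusted p = 0.0469), which made Sox21 the 1 of 8 genes called with time in controls, against 4.35% of all genes. That call failed on leaving out any control but number 6 (adjusted p between 0.0595 and 0.329). After 6 h, BMP2 gave 1259 and 1244 and TSA gave 1258 and 1275, all below the controls. Neither difference was called (-0.32 for BMP2 and -0.31 for TSA, adjusted p = 0.897 and 0.198). With array weights both were (0.044 and 0.0112), and TSA was with only the groups compared in the fit (0.0337). Of 14 alternatives, 13 left BMP2 and 12 left TSA uncalled. Under TSA at 24 h the arrays gave 1171 to 1688 (mean 1409 ± 215, SD, n = 4), overlapping the highest controls (log2 difference 0.32, SE 0.1, adjusted p = 0.0258). The adjusted p was 0.0501 without control 2, 0.103 without TSA array 1 and 0.0589 without TSA array 4. The call was also lost with median scaling (0.18, adjusted p = 0.21) and with only the groups compared in the fit (adjusted p = 0.0677). The BMP2 arrays, at 996.3 and 1231, lay within the range of the controls. The second probe set of Sox21, 1451835_at, moved the same way and further. Its mean under TSA at 24 h was 1087 against 690.6 in controls (0.61, adjusted p = 0.0131) and 503.1 under BMP2 (1.05, adjusted p = 0.00303), and in controls it declined from 6 h to 24 h by 0.97 (adjusted p = 0.0249).

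Genes that work with SoxB1 factors in precursors, or are bound by them, were taken from a list of 15, all of which were tested. At 6 h of TSA 0 of 15 rose and 2 fell, a share near the 11.8% of all genes called lower, with a list median of -0.35 on the log2 scale against 0.02 over all genes. Those that fell were Pax6, a regulator of radial glia (-1.13, SE 0.19, adjusted p = 0.00072), and Msi1, an RNA-binding protein of neural stem cells (-1.46, SE 0.37, adjusted p = 0.0102). At 24 h of TSA 5 of 15 rose and 2 fell, where 38.7% of all genes were called, with a median of 0.26. The intermediate filament genes Vim (0.39, SE 0.06, adjusted p = 0.000245) and Nes (1.15, SE 0.31, adjusted p = 0.01) were among those that rose. At 24 h of BMP2, where 17.6% of all genes were called, 2 of 15 rose, Pax6 (0.84, adjusted p = 0.00142) and the POU factor Pou3f3 (0.31, adjusted p = 0.0305), and 0 fell. Pax6 was also called lower at 24 h of TSA (-0.41, adjusted p = 0.0171), and TSA lay below BMP2 at that time (-1.25, adjusted p = 4.67e-05). At 6 h of BMP2 the difference of Pax6 from controls was 0.26 (adjusted p = 1).

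Sox4, a SoxC gene, fell slightly at 6 h of TSA on its brightest probe set. Controls gave 8509 and 8438, BMP2 gave 8065 and 8412, and TSA gave 7162 and 6892. Both TSA arrays were below every other array of that time. The log2 difference was -0.27 (SE 0.08, adjusted p = 0.0273, 1.21-fold lower). Leaving out either control or either TSA array raised the adjusted p to between 0.0755 and 0.165. None of the 5 other tested probe sets of Sox4 was called in that comparison, and the call was lost on the second brightest one (-0.33, adjusted p = 0.315), with median scaling (0.0673), with no filter (0.0783) and with no variance trend (0.115). By 24 h the signal ranged from 7250 to 8438 in controls and from 7435 to 8884 under TSA, and was 7701 and 8438 under BMP2, so the groups overlapped. The log2 difference was 0.04 for TSA (95% interval -0.08 to 0.15) and 0.04 for BMP2 (-0.1 to 0.19), and both signs turned with the processing.

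On a pair of dimmer probe sets of Sox4 a decline with time was called. In controls 1419155_a_at fell from a mean of 4027 at 6 h to 2006 at 24 h (log2 difference -1.01, adjusted p = 0.0156) and 1449370_at from 2143 to 794.8 (-1.51, adjusted p = 0.0274). On the brightest probe set the difference was -0.12 (SE 0.07, adjusted p = 0.324). At 24 h 1419157_at was higher under TSA than under BMP2, 1633 against 526.7 (1.73, adjusted p = 0.022), as was 1449370_at, 1181 against 458.6 (1.23, adjusted p = 0.0182). Over the 18 arrays the other tested probe sets of Sox4 correlated with the brightest at 0.09 to 0.61. The files do not say which transcript ends these probe sets read.

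Sox11, the SoxC partner of Sox4, was called in no comparison against control. At 6 h the signal was 4230 and 3227 in controls, 3968 and 2849 under BMP2, and 3941 and 3298 under TSA, and the 3 groups overlapped. The 24 h signal was 844.4 to 2803 in controls (mean 1746 ± 835, SD, n = 6), 1419 and 1267 under BMP2, and 980.9 to 2516 under TSA (mean 1914 ± 688, SD, n = 4). All 24 h controls lay below both 6 h controls, but the difference between the times was not called (adjusted p = 0.0974). The 95% intervals of the treatment differences were wide, from -1.08 to 1.01 at 6 h and -0.49 to 0.86 at 24 h of TSA. For BMP2 they ran from -1.18 to 0.91 at 6 h and -1.09 to 0.62 at 24 h. Changes within these bounds are not excluded. The 6 probe sets of Sox11 were at odds with each other, at correlations of -0.09 to 0.5 with the brightest. On 1436790_a_at, for one, control arrays 5 and 6 gave 1149 and 740.6 and both BMP2 24 h arrays gave 868 and 864.7, against 169.8 to 305.3 in controls 1 to 4. Those 4 arrays are the ones with high Xist signal, but TSA 24 h array 1, with low Xist signal, gave 921 and the other 3 TSA arrays of that time gave 207 to 346.6. The part of that split in Sox11 was not tested.

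Of the neuronal genes downstream of SoxC factors 12 were tested. At 6 h of TSA 5 of 12 fell and 0 rose (median -0.44), against 11.8% of all genes called lower. At 24 h of TSA 9 fell, 1 rose and 2 were not called (median -0.48), against 20.1% of all genes called lower. Dcx, a microtubule protein of migrating neurons, fell by 1.94 on the log2 scale at 6 h (adjusted p = 0.00255) and by 2.83 at 24 h (adjusted p = 1.09e-06). Elavl4, a neuronal RNA-binding protein, fell by 1.69 at 6 h (adjusted p = 0.00339) and by 1.25 at 24 h (adjusted p = 0.000634). The 1 gene that rose at 24 h was Stmn2, a microtubule regulator of growth cones (1.61, adjusted p = 0.00685). Under BMP2 at 24 h 2 of 12 rose and 0 fell, where 17.6% of all genes were called. They were Tubb3, a neuronal tubulin (1.48, adjusted p = 0.0286), and Tead2, a transcription factor and direct SoxC target (0.81, adjusted p = 0.0475). At 6 h of BMP2 0 of 12 were called.

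**Figure D2:**
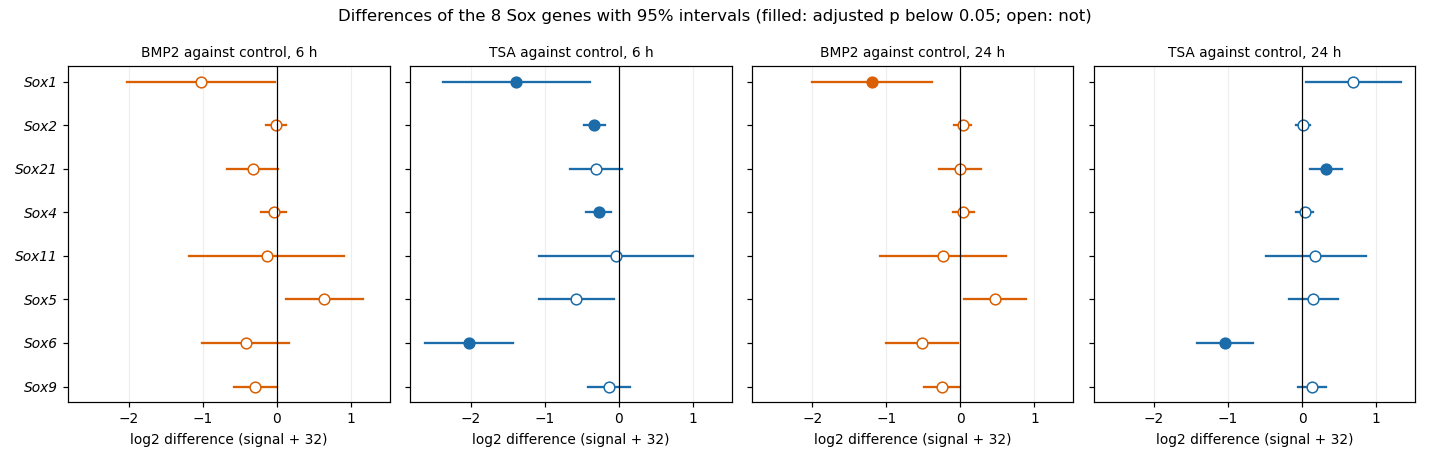
Log2 difference from the controls of the same time (x axis, signals plus 32) for the brightest probe set of each Sox gene, with its 95% interval, in 4 panels by treatment and time; filled points passed an adjusted p of 0.05. Sox6 lies at -2.02 and -1.04 under TSA, and Sox1 lies below 0 in every panel but TSA at 24 h, where it is 0.69.

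Sox5, a SoxD gene, differed between the 2 treatments at 6 h. Controls gave 237.6 and 221.8, BMP2 gave 385.9 and 367.7, and TSA gave 168 and 122.7. The 3 groups did not overlap, with BMP2 above and TSA below the controls. In the main fit neither difference against controls passed the test, at 0.64 for BMP2 (SE 0.24, adjusted p = 0.429) and -0.57 for TSA (SE 0.24, adjusted p = 0.103). With only the groups compared in the fit both passed (adjusted p = 0.0498 and 0.0328), as with array weights (0.0105 and 0.00384). TSA also passed with the replicate number as a block (0.0209, and 0.0239 with the block within time). Of 14 alternatives, 12 left BMP2 and 10 left TSA uncalled. TSA against BMP2 passed in the main fit (log2 difference -1.22, SE 0.24, adjusted p = 0.00189, 2.59-fold lower). Later, at 24 h, the BMP2 arrays gave 307.9 and 386.4, the TSA arrays 230.4 to 304.4, and the controls 177.4 to 345.8, so the groups overlapped. The BMP2 difference was then 0.47 (SE 0.2, adjusted p = 0.116), and 0.56 without control 6 (adjusted p = 0.0285). The TSA difference was 0.15 (95% interval -0.18 to 0.48). The other 3 tested probe sets of Sox5 had the same order of group means at 6 h, none was called against controls, and on the second brightest one TSA against BMP2 missed the threshold (adjusted p = 0.0553).

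Sox6, the SoxD gene known for its part in medial ganglionic eminence interneurons and in oligodendrocyte precursors, had the largest differences of the 8 genes under TSA. At 6 h the controls gave 1745 and 1411, BMP2 gave 1180 and 1154, and TSA gave 423.8 and 307.6. TSA arrays lay far below both other groups, and BMP2 arrays lay between. The TSA difference was -2.02 on the log2 scale (SE 0.28, adjusted p = 0.000187), 4.31-fold lower than controls, and TSA was also lower than BMP2 (-1.61, SE 0.28, adjusted p = 0.00071, 3.19-fold). At 24 h the controls ranged from 1323 to 2406 (mean 1872 ± 406, SD, n = 6) and the TSA arrays from 669.6 to 1164 (mean 901.1 ± 245, SD, n = 4). The groups did not overlap, and TSA was 2.08-fold lower (log2 difference -1.04, SE 0.18, adjusted p = 0.000377). The fall was thus nominally smaller at 24 h than at 6 h, by 0.99, a difference that did not pass the test (SE 0.33, adjusted p = 0.0709). It was called with the replicate number as a block (1.13, adjusted p = 0.00178), with the Xist set as a term (1.13, adjusted p = 0.0263) and with array weights (1.02, adjusted p = 0.011). The same difference of TSA effects was also gained for Sox21 (0.7, adjusted p = 0.0239) and Sox4 (0.34, adjusted p = 0.0229) under the block and with the Xist set as a term (adjusted p = 0.024 and 0.0303). For Sox5 it was gained under the block (0.83, adjusted p = 0.0168) and against the 24 h controls of the same Xist set (0.83, adjusted p = 0.0491). The block called 24% of all probe sets in that comparison. Both calls against control held in every alternative processing and on leaving out each array.

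Under BMP2 the difference of Sox6 from controls was not called on the brightest probe set in the main fit, but it was on others. At 24 h the BMP2 arrays gave 1246 and 1302, just below the lowest control of 1323 (log2 difference -0.52, 95% interval -1 to -0.03, adjusted p = 0.133). Controls 5 and 6, of the Xist set of the BMP2 arrays, lay higher, at 2105 and 2406, and controls 1 to 4 at 1323 to 2046. The difference ran from -0.81 to -0.37 over the alternative processings. It was not called with the Xist set as a term or against controls 5 and 6 alone. It was called with the mean over all tested probe sets (-0.78, adjusted p = 0.00061). With the replicate number as a block it was called too (-0.65, adjusted p = 0.00189, and 0.00104 with the block within time). That pairing is not established for BMP2 at 24 h. Of 15 alternatives, 12 left the difference uncalled. On 1426018_a_at the BMP2 mean was 55.61 against 171.4 in controls (-1.13, adjusted p = 0.0274), and on 1427677_a_at it was 686.6 against 1175 (-0.76, adjusted p = 0.0407). On 1426018_a_at the signal also followed the Xist sets: controls 5 and 6 gave 99.42 and 82.64 and controls 1 to 4 gave 147.8 to 284.3. At 6 h the BMP2 difference was -0.42 (95% interval -1.01 to 0.17). Under TSA, all 4 probe sets of Sox6 were called lower at 6 h, by 1.27 to 2.19 on the log2 scale, where 10.4% of all probe sets tested were. At 24 h 3 of the 4 were called lower, where 18.7% of all probe sets were.

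**Figure D3:**
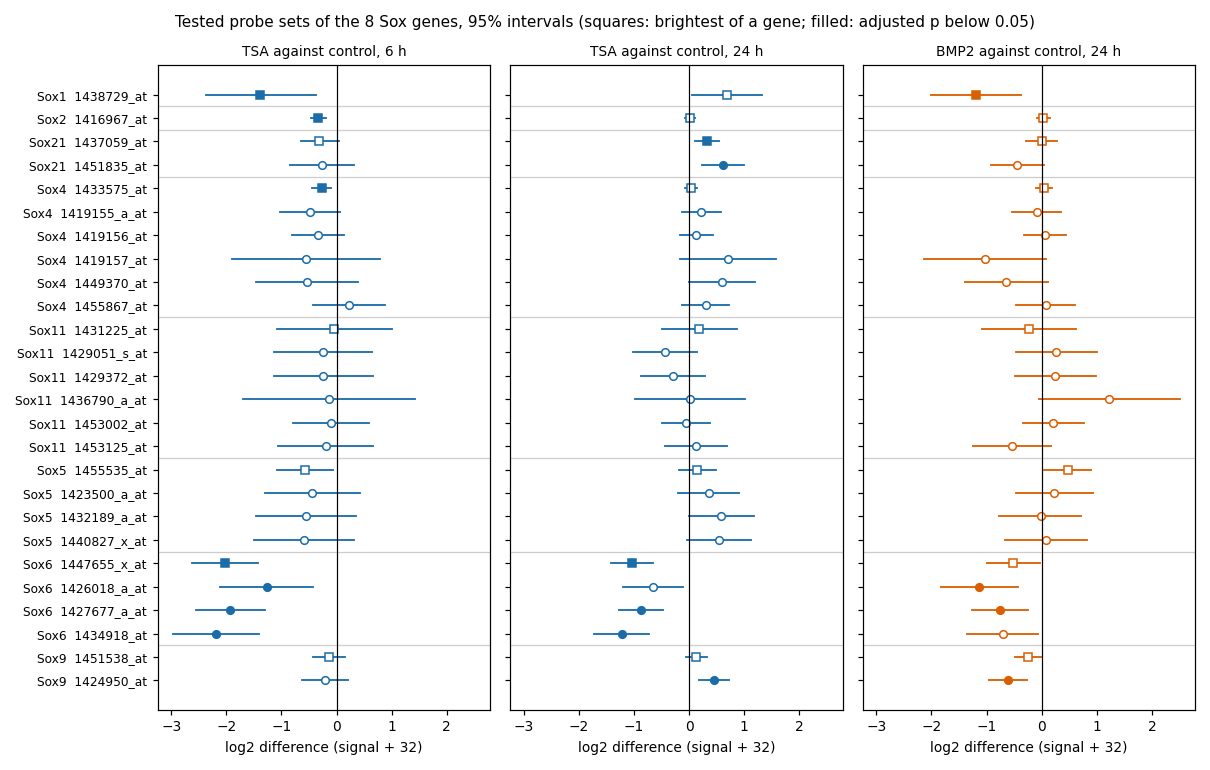
Log2 difference (x axis, signals plus 32) with 95% interval of each of the 26 tested probe sets of the 8 Sox genes, for TSA at 6 h, TSA at 24 h and BMP2 at 24 h against controls; squares mark the brightest probe set of a gene and filled symbols passed an adjusted p of 0.05. The 4 probe sets of Sox6 lie below 0 in all 3 panels, whereas those of Sox11 scatter on both sides of 0 at 24 h.

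The fall of Sox6 went with lower signals of oligodendrocyte genes. The summed signal of 13 such genes was 46370 to 50700 in controls at 6 h, 34470 to 40700 under BMP2 and 29750 to 32700 under TSA. At 24 h it was 39000 to 54110 in controls, 14920 to 15250 under BMP2 and 17750 to 29130 under TSA. After 6 h 5 of 13 fell under TSA and 1 of 13 under BMP2, and at 24 h 10 of 13 fell under TSA and 10 of 13 under BMP2. Over all genes 11.8% were called lower at 6 h and 20.1% at 24 h of TSA, and 1.78% and 17.6% were called in either direction under BMP2. Among them was Nkx2-2, a homeobox factor of the lineage, by 3.31 at 6 h (adjusted p = 8.85e-05) and 2.7 at 24 h (adjusted p = 2.41e-06) of TSA, where a fall is on the log2 scale. Sox6 did not have the same order, since the oligodendrocyte sum was lowest under BMP2 at 24 h and Sox6 under TSA at 6 h. The part of the oligodendrocyte lineage in the Sox6 signal was not tested. Dlx1, a homeobox gene of ganglionic eminence progenitors, also fell at 6 h of TSA (-2.54, adjusted p = 0.00496) and at 24 h (-1.46, adjusted p = 0.00599), and the summed signal of 9 forebrain genes was 1069 to 1854 at 6 h of TSA against 3629 to 4434 in controls. At 24 h that sum was 2020 to 3342 under TSA and 1810 to 3482 in controls, and Dlx1 was the 1 of 8 tested forebrain genes called.

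Matrix genes of the kind that SoxD proteins regulate with Sox9 in cartilage were mostly dim here, and 4 of 11 were tested. Col9a1, a chain of the type IX collagen of cartilage, fell under TSA by 1.76 on the log2 scale at 6 h (adjusted p = 0.00218) and by 2.13 at 24 h (adjusted p = 4.74e-06). Col11a1, a chain of type XI collagen, rose at 24 h of TSA (0.72, SE 0.12, adjusted p = 0.000337) and fell at 24 h of BMP2 (-0.72, SE 0.16, adjusted p = 0.00452). The list median was -0.22 at 6 h and 0.28 at 24 h of TSA.

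Sox9, the SoxE factor that starts gliogenesis, differed between the 2 treatments at 24 h. At 6 h the controls gave 1260 and 1156, BMP2 gave 980.7 and 985.3, and TSA gave 1136 and 1066. All treated arrays were below the controls, and neither difference was called (-0.29 for BMP2 and -0.13 for TSA, adjusted p = 0.825 and 0.558). With array weights BMP2 was called (adjusted p = 0.0432), and in 13 of 14 alternatives it was not. At 24 h the controls ranged from 1193 to 1563 (mean 1337 ± 124, SD, n = 6), BMP2 gave 1187 and 1048, and TSA ranged from 1337 to 1726 (mean 1473 ± 173, SD, n = 4). BMP2 lay just below all controls, and TSA overlapped them. Controls 5 and 6, of the Xist set of the BMP2 arrays, lay at 1342 and 1563, and controls 1 to 4 at 1193 to 1332. TSA was higher than BMP2 (log2 difference 0.38, SE 0.12, adjusted p = 0.0191), a call lost without BMP2 array 2 (0.3, adjusted p = 0.188), with median scaling (0.26, adjusted p = 0.144) and with only the groups compared (adjusted p = 0.0731). Against controls the differences were -0.25 for BMP2 (95% interval -0.49 to -0.01, adjusted p = 0.139) and 0.13 for TSA (-0.05 to 0.32, adjusted p = 0.255), the latter called with the replicate number as a block (0.19, adjusted p = 0.0463). The second tested probe set, 1424950_at, separated the groups further. Its 24 h values were 528.7 to 806.5 in controls, 453.8 and 405.3 under BMP2, and 857.1 to 1012 under TSA, with no overlap of the 3 groups. BMP2 was lower (-0.61, adjusted p = 0.0176) and TSA higher (0.45, adjusted p = 0.012) than controls on it, and TSA exceeded BMP2 by 1.06 (adjusted p = 0.000275).

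Of 15 genes that act with Sox9 in gliogenesis or mark astrocytes, all tested, 6 fell and 0 rose at 6 h of TSA, against 11.8% of all genes called lower, with a median of -0.59 on the log2 scale. The 3 nuclear factor I genes were among them, Nfix (-1.2, adjusted p = 0.00404), Nfia (-0.63, adjusted p = 0.00648) and Nfib (-1.09, adjusted p = 0.00861), which encode transcription factors that Sox9 induces or partners with at the onset of gliogenesis. Aqp4, the water channel of astrocyte endfeet, fell as well (-0.91, adjusted p = 0.0108). At 24 h of TSA 1 of 15 rose and 2 fell, below the 38.7% of all genes called, the median was 0.07, and Mmd2, a gene that Sox9 activates jointly with nuclear factor I A, was lower (-0.73, adjusted p = 0.000192). At 24 h of BMP2 0 of 15 rose and 3 fell, near the 17.6% of all genes called. These were the glutamate transporter genes Slc1a3 (-0.68, adjusted p = 0.00926) and Slc1a2 (-1.36, adjusted p = 0.0238), and the gap junction gene Gja1 (-1.01, adjusted p = 0.00184).

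The 4 genes called lower at 6 h of TSA were set beside their promoters, since promoters are among the places where histone deacetylases act. Sox6 has 6 listed starts and no choice between them was made, which leaves Sox1, Sox2 and Sox4, each with a single start. The 250 bases upstream of each start are shown 5′ to 3′ on the strand of the gene (RefSeq, build GRCm38.p6), at chr8:12395269-12395518 on the plus strand for Sox1, chr3:34649745-34649994 on the plus strand for Sox2 and chr13:28953700-28953949 on the minus strand for Sox4. Capitals mark the motifs searched on both strands: the GC box GGGCGG, the CCAAT box, and the Sox motifs written as ACAAAG and, second, as ACAATG. Matches of different motifs may share bases.
Sox1: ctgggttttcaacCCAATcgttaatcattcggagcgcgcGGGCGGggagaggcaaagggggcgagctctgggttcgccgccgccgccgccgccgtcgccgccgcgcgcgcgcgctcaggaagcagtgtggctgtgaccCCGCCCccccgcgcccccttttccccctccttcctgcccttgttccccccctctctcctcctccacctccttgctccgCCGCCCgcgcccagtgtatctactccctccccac
Sox2: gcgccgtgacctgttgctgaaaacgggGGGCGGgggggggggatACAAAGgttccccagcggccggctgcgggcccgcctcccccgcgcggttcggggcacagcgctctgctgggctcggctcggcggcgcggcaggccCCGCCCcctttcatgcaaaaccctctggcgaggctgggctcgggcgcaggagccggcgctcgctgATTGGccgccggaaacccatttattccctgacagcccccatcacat
Sox4: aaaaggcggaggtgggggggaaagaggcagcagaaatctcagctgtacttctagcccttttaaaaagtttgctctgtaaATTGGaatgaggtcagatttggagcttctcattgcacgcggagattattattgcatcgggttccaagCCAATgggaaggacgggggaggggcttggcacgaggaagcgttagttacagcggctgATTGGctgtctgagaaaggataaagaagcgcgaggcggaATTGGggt
The stretch of Sox1 held 3 GC boxes and 1 CCAAT box, that of Sox2 held 2 GC boxes, 1 CCAAT box and 1 ACAAAG, and that of Sox4 held 4 CCAAT boxes and no GC box. G and C made up 71.2% of the bases for Sox1, 72% for Sox2 and 50.8% for Sox4. Among 32851 promoter stretches of the same length, 32.7% held a GC box, 33.8% a CCAAT box, 16.5% ACAAAG and 10.7% ACAATG. These letters are a description of the window and no test of binding.

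By the criteria of the study (a ratio above 2, a difference above 100 signal units and 90% confidence, here an unadjusted limma p below 0.1), Sox1 passed at 6 h of BMP2 (2.1-fold lower), at 24 h of BMP2 (2.44-fold) and at 6 h of TSA (2.72-fold). Sox6 passed at both times of TSA (4.31-fold and 2.08-fold lower). All other members failed them on their brightest probe set in these comparisons. Those criteria were met by 1.42% of all genes at 6 h and 4.59% at 24 h of BMP2, and by 6.39% and 5.12% for TSA. No member rose by them.

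A further 12 Sox genes were paired with 20 probe sets, and 5 of these genes were tested. Sox7, Sox14, Sox15, Sox17, Sox18, Sox30 and Sry stayed under a mean of 100 in every group. Sox10, the SoxE factor of oligodendrocytes, had a mean of 2881 ± 38.5 in controls at 6 h and 1671 ± 472 at 24 h. It was 1022 ± 216 at 6 h of TSA (log2 difference -1.48, adjusted p = 0.0486), 336.3 ± 230 at 24 h of TSA (-2.4, adjusted p = 5.44e-05) and 243.3 ± 40.9 at 24 h of BMP2 (-2.59, adjusted p = 0.000476). Sox10 fell under both treatments at 24 h. By the brightest probe sets of the 8 members in the main fit, TSA called Sox6 lower and Sox21 higher at that time. BMP2 called Sox1 lower, which was lost with the Xist set as a term (adjusted p = 0.223), and no member was called under both. Probe set 1427677_a_at of Sox6 was, however, called lower under both TSA (-0.87, adjusted p = 0.0023) and BMP2 (-0.76, adjusted p = 0.0407). The contrast with Sox10 thus depends on the probe set. Sox13, the remaining SoxD gene, had the pattern of Sox5 at 6 h: 225.7 and 186.3 in controls, 376.4 and 353.2 under BMP2, and 123.8 and 108.7 under TSA. It was lower than controls under TSA (-0.68, SE 0.2, adjusted p = 0.0208) and lower than under BMP2 (-1.42, SE 0.2, adjusted p = 0.000126). The BMP2 difference of Sox13 was 0.74 (adjusted p = 0.0896).

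Sox3, the remaining SoxB1 gene, was called in no comparison on its brightest probe set. At 6 h its arrays gave 1184 and 1200 in controls, 780 and 852 under BMP2, and 1596 and 1614 under TSA, with no overlap (0.42 for TSA against controls, adjusted p = 0.51). On its second probe set, 1450485_at, TSA was higher than BMP2 at 6 h (0.75, adjusted p = 0.0347) and at 24 h (0.68, adjusted p = 0.0197). Sox12, the remaining SoxC gene, was called in no comparison on its brightest probe set and lay at 1193 ± 10.2 in controls and 860.8 ± 105 under TSA at 6 h (SD, n = 2 each). Sox8 was called lower at 24 h of TSA (-1.81, adjusted p = 0.0263), yet its 24 h controls split by Xist set. Controls 5 and 6 gave 1702 and 2069, controls 1 to 4 gave 188.5 to 261.8, and the TSA arrays gave 62.81 to 251.9, which overlaps the controls of their own set.

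**Figure D4:**
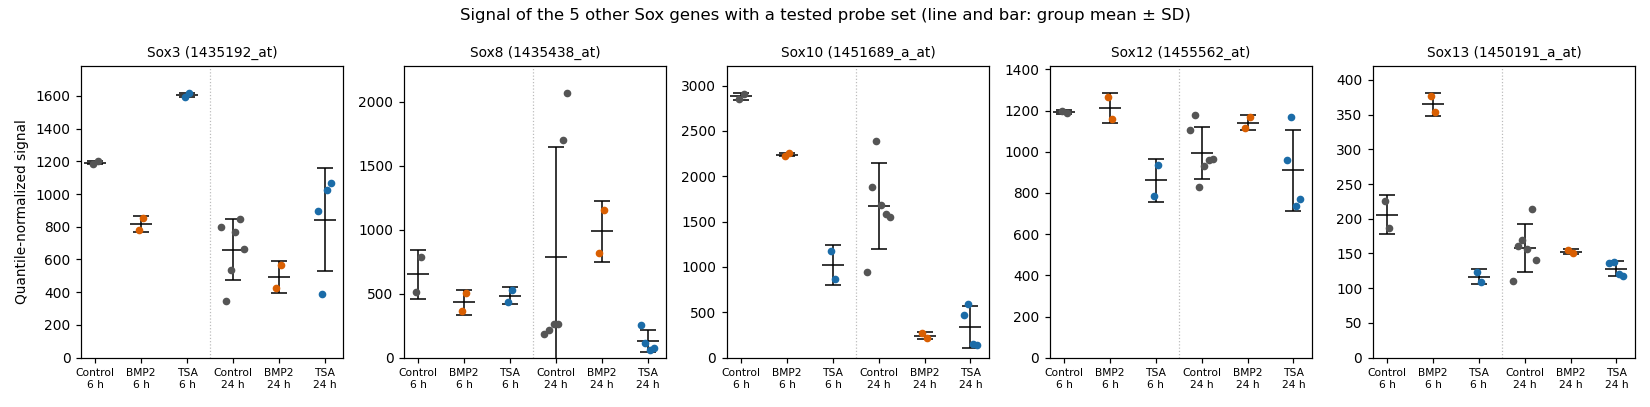
Quantile-normalized signal (linear axis from 0) of the brightest probe set of the 5 other Sox genes with a tested probe set, by group; each point is an array, and the line with its bar is the group mean ± SD, cut at 0 where the SD exceeds the mean. Sox10 is low at 24 h in both treatments, Sox13 is high at 6 h of BMP2 and low at 6 h of TSA, and 2 of the 6 Sox8 controls at 24 h stand apart at 1702 and 2069.

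The 8 genes did not share 1 pattern over the 18 arrays. Correlations between their brightest probe sets ran from -0.44 for Sox6 and Sox11 to 0.67 for Sox2 and Sox6. Arrays share their treatment groups and times, so these values describe the data set only. The genes most like Sox6 were Rprd2 (r = 0.976), Akap9 (0.96) and Dtd1 (0.96). Those most like Sox1 were Tmem131l (0.91), the stem cell nuclear receptor gene Nr2e1 (0.879) and Stox2 (0.875). For Sox2 they were Ptbp2 (0.923), E130114P18Rik (0.906) and Qk (0.904), of which Ptbp2 and Qk encode RNA-binding proteins. For Sox9 they were Bcl2 (0.925), B4galnt4 (0.894) and Etfbkmt (0.882). For Sox21 they were Fam181b (0.843), Ttyh3 (0.789) and Brinp2 (0.776). For Sox5 they included the BMP receptor gene Bmpr2 (0.857), Vegfc (0.846) and Exosc10 (0.835). For Sox11 they were Atat1 (0.913), Lin37 (0.906) and Tecr (0.906), and for Sox4 Maf1 (0.776), Swsap1 (0.772) and Ccar1 (0.753).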

How the data were processed

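Deposited values were linear signal intensities of 45101 probe sets on 18 Affymetrix Mouse Genome 430 2.0 arrays. The submitters' notes name MAS5, with no version, and the methods of the study name dChip with quantile normalization, so which of these made the deposited intensity values is not settled. Of the probe sets, 34958 were paired with 1 gene, 932 with several and 9211 with none listed. Groups were taken from the labels.

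In R 4.3.3 with limma 3.58.1, all 18 arrays were brought to common quantiles and values were taken as log2(signal + 32), which understates changes of dim genes. The 19498 probe sets (10589 genes) with a group mean of at least 100 entered 1 fit of 6 groups with an intensity trend in the variance. P-values were two-sided and adjusted by Benjamini-Hochberg within a comparison, with a threshold of 0.05. The brightest tested probe set stood for a gene. The number of arrays limits the precision. The fit was tested on simulated data. Alternatives changed the scaling, the added value, the filter, the probe set, the samples fitted, the trend and the array weights, added the Xist set or the replicate number as a term, and left out each array in turn.

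Residuals of TSA and control arrays with the same number at 24 h correlated at 0.42, 0.58, 0.48 and 0.32, each highest at its own number. In the alternatives with a block, the numbers were therefore taken to pair these arrays, from the data and not from the labels. The main fit does not use this pairing. The members and gene lists were chosen with earlier results of these data known. Named were the 8 members, all other Sox genes, the 3 genes most correlated with each member, and at most 4 genes with the smallest adjusted p from each list. Several lists were also used for cell types: oligodendrocyte lineage, forebrain, microglia, endothelium, mural cells and fibroblasts, and the BMP response. Protein sequences had been planned and were not used here. Treatment began at the change of medium by the labels and a day before it by the study's methods.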

Additional observations from a re-analysis of the deposited data

Results flagged for a closer look

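The TSA effect differed between 6 h and 24 h for 2 of the 8 genes by the interaction term of the limma fit. For Sox1 the difference from controls was -1.38 at 6 h (2 of 2 TSA arrays below both controls) and 0.69 at 24 h, which gives 2.07 between the times (SE 0.56, adjusted p = 0.0284). Without either 6 h control or either 6 h TSA array the adjusted p was between 0.0742 and 0.144, with values of 1.88 to 2.26. For Sox2 the difference was -0.33 at 6 h and 0.01 at 24 h, which gives 0.34 between the times (SE 0.08, adjusted p = 0.0154). The adjusted p of Sox2 was 0.0744 without control 6 h array 1, 0.0666 without control 6 h array 2 and 0.116 without TSA 6 h array 2. It was 0.205 with median scaling, where the value was 0.21, 0.0548 with no filter and 0.0949 with no variance trend. The same term was called for 11.6% of all genes. Of 16 sets of 4 or 6 arrays examined for a single far array, 0 had one.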

How the results depend on the processing

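The TSA calls of Sox6 at both times and of Sox2 at 6 h held under every alternative processing of the arrays, at -2.19 to -1.85, -1.22 to -0.89 and -0.35 to -0.33 on the log2 scale. Counts below are of the 8 genes called and log2 differences are for the gene and comparison named; the cause of each shift was not tested, except that fits of fewer arrays have fewer degrees of freedom. Small differences that were never called changed sign as given, except Sox4 for TSA against BMP2 at 24 h. With the mean over all tested probe sets Sox4 was called there, at 0.6 (adjusted p = 0.0233). Without normalization of the deposited values, Sox2 was -0.02 for BMP2 and -0.01 for TSA at 24 h, and 0 genes were called with time in controls. Scaling by the array median moved the median of all genes by -0.12 for TSA at 24 h and by 0.15 with time in controls. It called 2 genes at 6 h and 1 at 24 h of TSA, 1 for TSA against BMP2 at 24 h, 1 for the difference of TSA effects and 0 with time, with Sox2 at -0.14 and Sox4 at -0.1 for TSA at 24 h, close to the shifted median. With no filter on low signals, 0 were called at 24 h of BMP2, 2 at 6 h of TSA, 1 for the TSA effects and 0 with time. The mean over all tested probe sets of a gene called 3 at 24 h of BMP2, 4 for TSA against BMP2 at 24 h, 4 for the TSA effects and 2 with time. In it Sox4 was -0.26 for BMP2 at 24 h and 0.6 for TSA against BMP2 (main value -0.01), and Sox11 was 0.2 for BMP2 and -0.08 for TSA at 24 h. On the second brightest probe set, an alternative added after seeing the data, 2 were called at 24 h of BMP2, namely Sox9 and Sox1. Sox1 and Sox2 have 1 tested probe set each, which was kept here and in the mean over probe sets. For these genes the 2 settings are thus no test of the choice of probe set. On the second brightest probe set Sox11 was 0.21 for BMP2 and -0.06 for TSA at 24 h, and Sox4 was 0.07 for TSA against BMP2. With only the groups compared in the fit, 2 were called at 6 h of BMP2, 0 at 24 h of BMP2, 1 at 24 h of TSA, 1 for TSA against BMP2 at 24 h and 0 with time. With no variance trend, 1 was called for the TSA effects and 0 with time. Array weights called 4 at 6 h and 2 at 24 h of BMP2, 4 for TSA against BMP2 at 24 h, 6 for the TSA effects and 2 with time, with Sox21 at 0.05 for BMP2 and Sox2 at -0.01 for TSA at 24 h. No share of all genes called is given for these alternatives, so their counts cannot be set against a background.

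With the Xist set as a term, 0 genes were called at 24 h of BMP2, 1 for TSA against BMP2 at 24 h and 5 for the TSA effects. In these comparisons the fit with that term called 9.67%, 12.9% and 12.8% of all probe sets. Sox4 was -0.02 for BMP2 and Sox2 -0.02 for TSA at 24 h, and Sox4 was 0.09 for TSA against BMP2. With only the 24 h controls of the same Xist set, 0 were called at 24 h of BMP2 and 6 for the TSA effects, with Sox4 at -0.02 for BMP2 and Sox2 at -0.02 for TSA. With the replicate number as a block, 2 were called at 24 h of BMP2, 4 at 24 h of TSA, 6 for the TSA effects and 2 with time, where the block called 45%, 44.8%, 24% and 24.3% of all probe sets. Under the block Sox21 was 0.04 and Sox11 0.23 for BMP2 at 24 h, and Sox2 was -0.02 for TSA at 24 h. With the block within each time, 2 were called at 24 h of BMP2 and 6 for the TSA effects, with the same 3 values of 0.04, 0.23 and -0.02. That block called 46.7% and 25.8% of all probe sets in these comparisons. At 6 h the numbers correlated at 0.56 to 0.7 over only 2 pairs, and for BMP2 at 24 h at 0 and -0.13, so the pairing there is not established. No other call against control at 24 h of TSA changed under the block.

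Leaving out 1 array at a time gave these counts. They were 0 to 0 at 6 h of BMP2, 0 to 2 at 24 h of BMP2, 2 to 2 at 6 h of TSA, 1 to 3 at 24 h of TSA, 2 to 3 for TSA against BMP2 at 6 h, 0 to 4 for it at 24 h, 0 to 0 for the BMP2 effects, 0 to 6 for the TSA effects and 0 to 1 with time. With 2 arrays in 4 of the groups, the remaining array is assumed to vary like the other groups. Log2 differences that changed sign in this way ran from -0.03 to 0.01 for Sox2 and -0.37 to 0.1 for Sox11 at 6 h of BMP2, -0.23 to 0.16 for Sox11 at 6 h of TSA, -0.15 to 0.14 for Sox21 and -0.02 to 0.11 for Sox4 at 24 h of BMP2, -0.02 to 0.03 for Sox2 and -0.01 to 0.07 for Sox4 at 24 h of TSA, and -0.07 to 0.06 for Sox4 in TSA against BMP2 at 24 h. None of these was called.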
